A study of Mus musculus with 15 samples.

Results

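The comparison was between adult retinal endothelial cells of mice lacking a receptor and of mice lacking its ligand: 3 arrays of Fz4-/- cells (Fz4 KO) were set directly against 3 arrays of Norrin- cells (Norrin KO). The members were taken from the array titles, which gave 6 of the 15 arrays of the series. Each array held RNA of endothelial cells isolated from retina with beads that carry an antibody to PECAM, an endothelial surface protein, and each RNA came from 5 to 10 adult mice pooled. All groups were on a mixed C57Bl6/129 background, every label gives both sexes, and no floxed allele, Cre driver or transgene is named for either mutant. The 3 arrays of Lrp5-/- cells and the 6 of wild-type cells served as reference levels and shared in the estimate of the spread. Each p-value of the gene tests thus sets the difference of group means against the spread among pools within the 4 groups. The precision of every difference is limited by 3 arrays a group.

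Norrin, encoded by Ndp on the X chromosome, is a secreted protein that binds Frizzled4, encoded by Fzd4, and activates beta-catenin signalling together with the coreceptor Lrp5. In the retina Norrin is made mainly by Müller glia, whereas the receptors act in the endothelium. The pathway is known for retinal vessel growth and for the blood-retina barrier, and its loss causes retinal vessel disease in mouse and human. Comparing the receptor knockout with the ligand knockout asks how far loss of the receptor and loss of its ligand leave the same transcriptome.

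The purified cells carried endothelial genes at high levels in both mutants. The mean of 18 pan-endothelial genes was 11.79 to 11.85 on the Fz4 KO arrays and 11.49 to 11.78 on the Norrin KO arrays (log2 signal), against 11.70 to 11.87 in wild type, and 0 of the 18 passed limma's test of the difference (8 at an unadjusted p under 0.05). Every Fz4 KO array mean lay above every Norrin KO array mean (exact two-sided permutation test, p = 0.1, the smallest that 3 against 3 can give), and 13 of the 18 differences were above 0, with a median of 0.27. For 9 of the 18 the groups did not overlap, against 24.6% of all genes. By limma 3287 of all 18194 genes had an unadjusted p under 0.05, the background for such counts here and below. Arrays correlated at 0.985 to 0.992 within Fz4 KO, at 0.976 to 0.988 within Norrin KO and at 0.966 to 0.986 between them.

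Xist, Eif2s3y and some of the RNA controls separated Fz4 KO from Norrin KO. Xist, the transcript of the inactive X chromosome in females, read 11.42, 11.75 and 11.88 on the Fz4 KO arrays and 4.98, 4.12 and 4.45 on the Norrin KO arrays. All 3 Fz4 KO arrays were thus high and all 3 Norrin KO arrays low, whereas both levels occurred among the Lrp5 KO and among the wild-type arrays. The difference was 7.17 on the log2 scale and did not pass limma's test (adjusted p = 0.079), whose estimate of the spread takes in those mixed groups. The Y-linked Eif2s3y was 9.57, 9.63 and 3.25 in Fz4 KO and 9.77, 10.32 and 10.28 in Norrin KO, so that it was low on Fz4 KO 3 alone among the 6. All Norrin KO arrays were thus low for Xist and high for Eif2s3y, as male RNA is, and Fz4 KO 3 was the reverse. The labels give both sexes for all of these arrays. Sex of the pooled mice and genotype cannot be told apart in this contrast. The actin control signal was higher at the 3′ than at the 5′ end by 0.577 to 0.861 on the Fz4 KO arrays and by 1.05 to 2.92 on the Norrin KO arrays, with no overlap (exact two-sided permutation test, p = 0.1). It was 0.558 to 0.957 in Lrp5 KO and 0.695 to 1.04 in wild type, so the Norrin KO arrays lay above all others, Norrin KO 2 only just. A larger gap means that less of the signal came from the 5′ part of the transcript, and Norrin KO 1 was highest at 2.92. The gap of the Gapdh control overlapped, at 0.798 to 1.07 in Fz4 KO and 0.887 to 2.99 in Norrin KO (exact two-sided permutation test, p = 0.3). The cre spike-in control was 14.69 to 14.78 in Fz4 KO and 14.26 to 14.46 in Norrin KO, with Lrp5 KO and wild type at 14.78 or more.

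**Figure D1:**
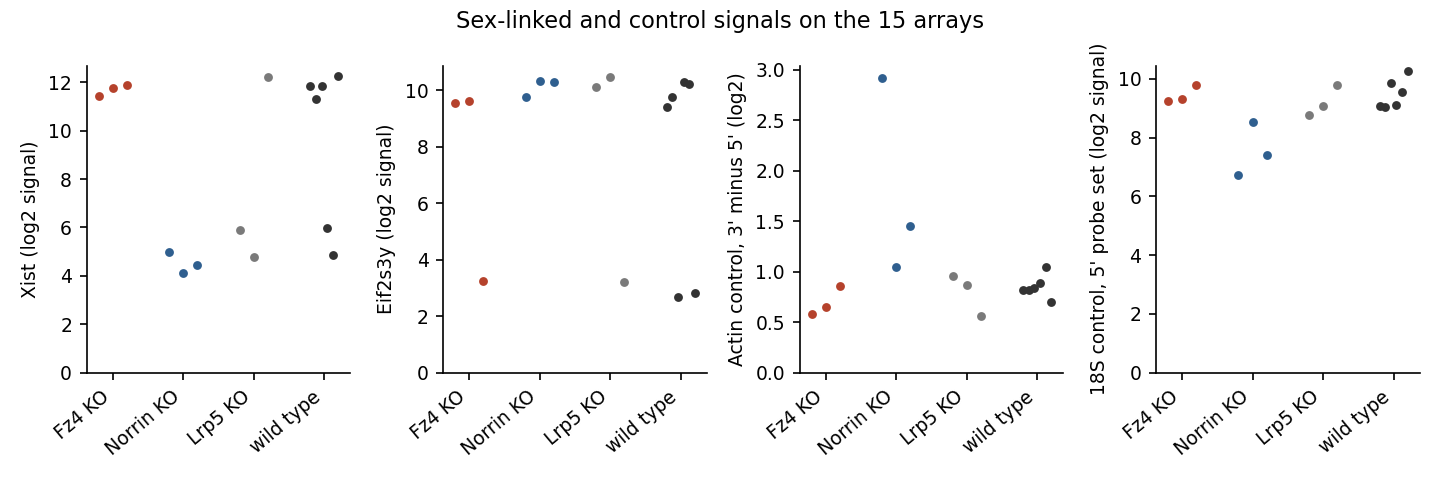
Values on each of the 15 arrays by group: log2 signal of Xist, of Eif2s3y and of the 5′ 18S control, and the log2 difference between the 3′ and 5′ actin controls; each dot is 1 array. Xist was above 11 in Fz4 KO and below 5 in Norrin KO throughout, and the actin gap was 0.577 to 0.861 in Fz4 KO against 1.05 to 2.92 in Norrin KO.

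The targeted receptor was examined first. Fzd4 was 3.98, 4.13 and 4.56 in Fz4 KO and 11.50, 11.63 and 11.84 in Norrin KO. The Fz4 KO arrays were dim, and the Norrin KO arrays lay a little below the wild-type mean (12.09 ± 0.20, SD, n = 6). The difference was -7.43 ± 0.18 (SE) on the log2 scale (limma, adjusted p = 5.2e-12), and its other probe sets were lower by the same contrast, at -5.17 and -1.97. Ndp was 4.93, 4.25 and 4.96 in Fz4 KO and 4.17, 4.35 and 3.88 in Norrin KO, a difference of 0.58 that did not pass (adjusted p = 0.17). It was as dim in wild type (4.44 ± 0.19, SD, n = 6), so its level is no check of the ligand knockout. Neither coreceptor passed: Lrp5 differed by -0.09 (95% interval -0.61 to 0.44) and Lrp6 by -0.32 (-0.63 to -0.02, adjusted p = 0.245). Tspan12, the tetraspanin that boosts Norrin signalling, differed by 0.36 (-0.07 to 0.79).

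Few genes passed limma's adjusted test of receptor loss against ligand loss, while 3287 of 18194 had an unadjusted p under 0.05. Of 18194 genes, 423 passed limma's test at an adjusted p of 0.05 (2.32% of those tested): 163 were higher in Fz4 KO (0.896%) and 260 were lower (1.43%). The arrays of the groups did not overlap for 422 of the 423, and did not overlap for 24.6% of all genes. Among the 423 the median size of the difference was 0.98 on the log2 scale, 199 differed by 1 or more on that scale, which is 2-fold or more, and 25 by 2 or more. Over all genes the median size of the difference was 0.24, 79.3% of genes lay within 0.5 of 0, and for 68.8% the whole 95% interval lay within 1 of 0. By the same fit 41 genes separated Fz4 KO from Lrp5 KO (0.225%) and 2171 separated Norrin KO from Lrp5 KO (11.9%).

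The number of genes called was unstable, and most of the alternative fits could not change their direction. With only the 6 arrays compared, 4 genes were higher and 15 lower. With Xist and Eif2s3y as covariates 4 were higher and 3 lower, and with the actin gap as covariate 7 were higher and 5 lower. The median size of the 423 differences was 1.00 with the sex-linked covariates and 0.78 with the actin covariate, against 0.98 without them. Leaving out Fz4 KO 1, 2 or 3 gave 23, 57 and 31 higher and 38, 40 and 69 lower genes. Leaving out Norrin KO 1, 2 or 3 gave 49, 275 and 68 higher and 53, 489 and 127 lower, and the counts also moved by more than 1.5 times without Lrp5 KO 3 (108 higher) or without wild type 2 or 6 (83 and 86 higher, 134 and 142 lower). All 423 genes kept their sign in each of those fits, but for most fits this was fixed in advance. With the 6 arrays, or without an Lrp5 KO or wild-type array, the estimated difference cannot change. Leaving out 1 Fz4 KO or Norrin KO array cannot reverse it for the 422 genes whose arrays did not overlap. For these genes only the fits with covariates could have changed the sign. Only Fzd4 and Gm14137 passed in all 3 of the fits with 6 arrays, with the sex-linked covariates and with the actin covariate, and 25 of the 423 passed in at least 1 of them.

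**Figure D2:**
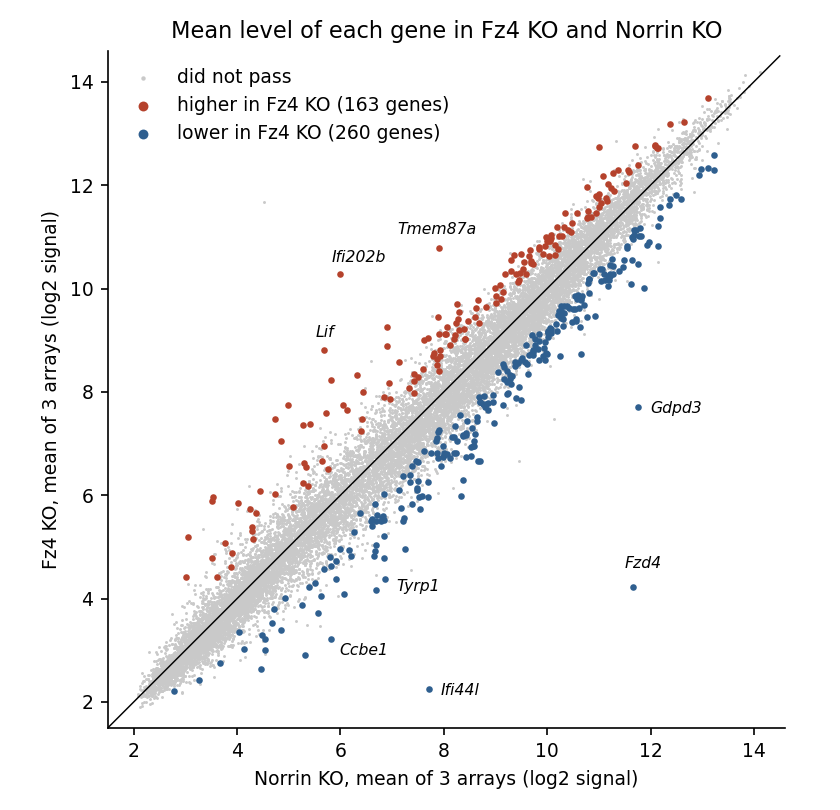
Mean log2 signal of each of 18194 genes in Norrin KO (horizontal) and Fz4 KO (vertical), 3 arrays each; the line marks equal levels, and colours mark the 163 genes higher and the 260 genes lower in Fz4 KO at an adjusted p of 0.05. Most genes lie along the line, and Fzd4, Ifi44l, Gdpd3 and Ifi202b lie farthest from it among the coloured genes.

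Among the genes higher in Fz4 KO, the largest difference belonged to Ifi202b, a member of the interferon-inducible PYHIN family of DNA-binding proteins. It read 9.70, 10.53 and 10.60 in Fz4 KO and 7.78, 5.36 and 4.81 in Norrin KO. The groups did not overlap, and Norrin KO 1 stood above the other Norrin KO arrays, which were near the wild-type mean (5.07 ± 0.73, SD, n = 6). The difference was 4.29 ± 0.63 (adjusted p = 0.0074). Its probe set carries the suffix of sets that can bind several transcripts, and members of the family resemble each other, so the signal may include a close relative.

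Lif, a cytokine of the interleukin-6 family that retinal Müller glia release upon damage, read 8.96, 7.71 and 9.78 in Fz4 KO and 5.64, 6.49 and 4.92 in Norrin KO. All Fz4 KO arrays lay above all Norrin KO arrays, by 3.14 ± 0.53 in the mean (adjusted p = 0.011). The dimmer second probe set of Lif differed by 0.27 and did not pass. Cxcl13, a chemokine that attracts B cells, was 8.87, 8.92 and 9.97 in Fz4 KO against 6.89, 6.86 and 6.95 in Norrin KO. On this probe set the Norrin KO arrays were tightly grouped at the wild-type level (7.11 ± 0.24, SD, n = 6). The difference of 2.35 ± 0.30 (adjusted p = 0.0044) stood beside 2.97 on the other probe set. There the Norrin KO mean lay above the wild-type mean, at 6.998 against 4.776.

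Plau, the urokinase-type plasminogen activator, was 8.04, 8.12 and 8.55 in Fz4 KO and 5.09, 6.55 and 5.81 in Norrin KO. Here too the groups were apart, by 2.42 ± 0.43 (adjusted p = 0.014), and the other probe set differed by 1.96. Gdnf, a neurotrophic factor, was dim in both groups, at 5.29, 4.52 and 5.77 against 2.75, 3.45 and 2.97 (difference 2.13, adjusted p = 0.0049). Ifnb1, interferon beta, was 7.59, 6.52 and 8.03 against 5.94, 6.25 and 4.06 (difference 1.97, adjusted p = 0.046), a call lost under 17 of 31 alternatives. The lowest Fz4 KO array of Ifnb1 lay only just above the highest Norrin KO array.

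Tmem87a, a membrane protein of the Golgi, was even within each group. It read 10.66, 10.99 and 10.69 in Fz4 KO and 7.95, 7.79 and 7.98 in Norrin KO. The groups were well apart, with the Lrp5 KO arrays between them at 10.22, 8.06 and 10.14, and the difference was 2.87 ± 0.45 (adjusted p = 0.0089 by limma). The adjusted p was 0.0020 with the 6 arrays alone, whereas the call was lost with the sex-linked covariates (1.92, adjusted p = 0.299) and with the actin covariate (2.78, adjusted p = 0.139). Stk35, a kinase, was similarly even at 8.37, 8.22 and 8.39 against 6.35, 6.10 and 6.48 (difference 2.02, adjusted p = 0.0045), but its dimmer probe set differed by 0.03.

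The other genes of the 15 largest rises were mostly dim outside Fz4 KO. Ctse, the protease cathepsin E, differed by 2.75 (-0.40 on its dimmer probe set), and Dpys, dihydropyrimidinase of pyrimidine breakdown, by 2.74 while its other probe sets differed by 0.25 and -0.33. Serpina1b, an alpha-1-antitrypsin, differed by 2.44 with 3.16 on its second probe set, and both of those sets can bind near-identical Serpina1 copies. The phosphatase Dusp14 (2.18), the kinase Dyrk3 (2.37), Map3k7cl (2.09) and Hddc3 (1.99) completed the group, and the second probe set of Hddc3 differed by -0.53.

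**Figure D3:**
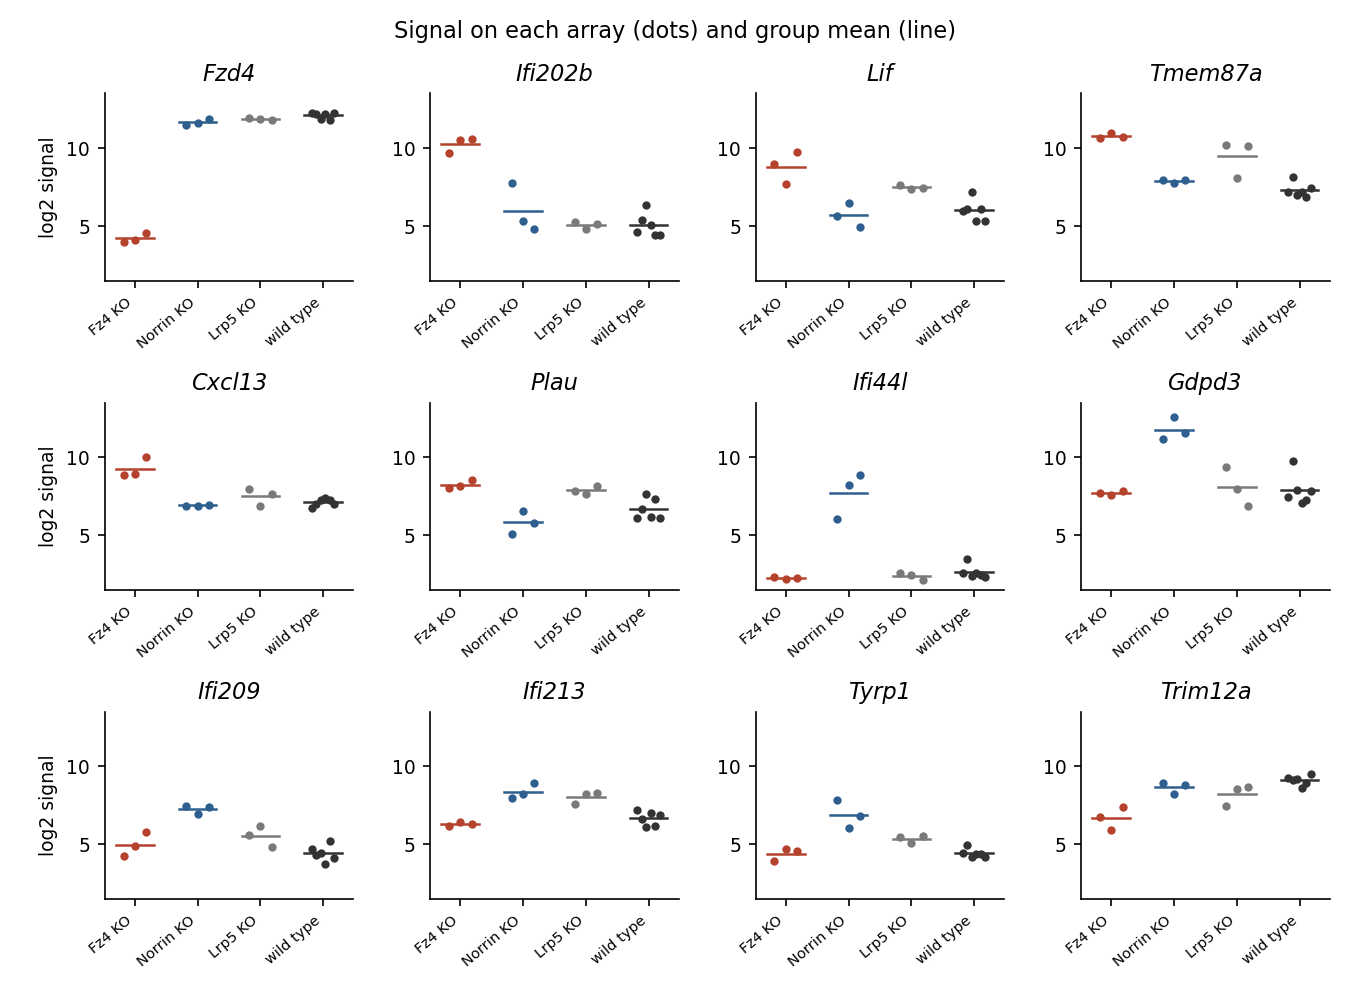
Log2 signal of 12 genes on each of the 15 arrays, with a line at each group mean. Fz4 KO stands apart from the other groups for Fzd4 and Ifi202b, and Norrin KO stands apart from the other groups for Ifi44l, Gdpd3, Ifi209 and Tyrp1.

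Among the genes lower in Fz4 KO, Ifi44l and Gdpd3 stood out, and both were at the wild-type level in Fz4 KO. Ifi44l, an interferon-inducible gene, read 2.32, 2.18 and 2.27 in Fz4 KO and 6.03, 8.22 and 8.87 in Norrin KO. It was at the bottom of the scale on every Fz4 KO array and well above that on every Norrin KO array. The difference was -5.45 ± 0.52 (adjusted p = 0.00029), a lower bound in size because Fz4 KO lay at that bottom. The other probe sets gave -4.10 and -0.81. Gdpd3, a glycerophosphodiesterase that acts on lysophospholipids, was 7.72, 7.59 and 7.82 against 11.15, 12.55 and 11.56. The groups were far apart, by -4.05 ± 0.65 (adjusted p = 0.0096). No other probe set stood for it.

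The next genes were dim in Fz4 KO and spread widely among the Norrin KO arrays. Ccbe1, a secreted protein of lymphatic vessel growth, was 2.97, 3.74 and 2.95 against 6.96, 4.26 and 6.23 (difference -2.60, adjusted p = 0.015), but its other 3 probe sets lay between -0.42 and 0.03. Fbp1, fructose-bisphosphatase of gluconeogenesis, was 3.30, 2.66 and 2.79 against 6.36, 3.90 and 5.68 (difference -2.40, adjusted p = 0.015). In both genes Norrin KO 2 was the lowest of its group and Norrin KO 1 the highest.

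Transport and adhesion genes were among them. Slc10a6, a carrier of sulfated steroids, was 5.88, 5.32 and 6.79 in Fz4 KO and 8.52, 8.53 and 7.93 in Norrin KO (difference -2.33 ± 0.33, adjusted p = 0.0074), with all wild-type arrays lower still (4.88 ± 0.28, SD, n = 6). Slc26a7, an anion exchanger, differed by -2.53 and its dimmer probe set by -0.24. Gp1bb, a subunit of the platelet receptor for von Willebrand factor, was 6.88, 6.41 and 6.72 against 9.24, 8.56 and 8.30 (difference -2.03 ± 0.24, adjusted p = 0.0036), with -1.30 on its second probe set, while 0 of 6 measured platelet genes passed limma's test (1 at an unadjusted p under 0.05). Of these 6 platelet genes 5 were below 0, with a median of -0.34 and Ppbp lowest at -1.13, and the list mean was 5.61 to 5.94 in Fz4 KO and 5.92 to 6.37 in Norrin KO. Hcfc1r1, a regulator of a nuclear cofactor, was bright and even at 10.12, 10.04 and 9.86 against 12.13, 11.91 and 11.56 (difference -1.86, adjusted p = 0.0044). Rabep2, an endosomal protein, differed by -1.90 (-0.66 on its dimmer probe set) and the cadherin Cdh19 by -1.98.

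Trim12a, of the TRIM family of antiviral restriction factors, was the reverse case, with the Norrin KO arrays at the wild-type level. It was 6.75, 5.88 and 7.35 in Fz4 KO and 8.93, 8.23 and 8.81 in Norrin KO, against 9.08 ± 0.29 (SD, n = 6) in wild type. The Fz4 KO arrays lay below all others of the contrast, by -2.00 ± 0.37 (adjusted p = 0.016). Its second, dim probe set differed by 0.02. Over the 30 largest differences besides Fzd4, 26 further probe sets covered 19 genes: 20 had the same sign, 6 of these passed, and 11 lay within 0.5 of 0.

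Of 8 measured PYHIN genes, which lie close together on chromosome 1, 3 passed, in opposite directions, against 2.32% of all genes. They were singled out after their values were seen. Beside the rise of Ifi202b, Ifi209 was lower at 4.25, 4.87 and 5.76 in Fz4 KO against 7.45, 6.92 and 7.37 in Norrin KO (difference -2.28 ± 0.41, adjusted p = 0.015). Ifi213 was lower at 6.18, 6.39 and 6.31 against 7.98, 8.20 and 8.92 (difference -2.07 ± 0.31, adjusted p = 0.0074). The dimmer probe sets of Ifi209 and Ifi213 gave -1.22 and -1.43 and did not pass. The other members, Aim2, Ifi203, Ifi204, Ifi207 and Mndal, did not pass and differed by -0.26 to 0.44. Of the 4 groups, Fz4 KO had the highest Ifi202b on every array and Norrin KO the highest Ifi209, while Ifi213 was near wild type in Fz4 KO (6.29 against 6.65) and higher on all Norrin KO and Lrp5 KO arrays.

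The promoters of these neighbours are shown because the genes share a locus and differ in direction. Each run holds the 250 bases before the gene's start in RefSeq (GRCm38.p6), 5′ to 3′ on the gene's strand. Capitals mark matches on either strand to GAAA, any 2 bases and GAAA, a core of the interferon-stimulated response element, or to CTTTGAT and CTTTGTT, sites of the TCF/LEF factors through which beta-catenin acts. The motifs do not overlap in these windows. Ifi44l is added as the largest fall beside Fzd4, and Kcp, a secreted modulator of BMP signalling described below, as a gene with a TCF/LEF match.
Ifi202b, chr1:173982845-173983094, minus strand: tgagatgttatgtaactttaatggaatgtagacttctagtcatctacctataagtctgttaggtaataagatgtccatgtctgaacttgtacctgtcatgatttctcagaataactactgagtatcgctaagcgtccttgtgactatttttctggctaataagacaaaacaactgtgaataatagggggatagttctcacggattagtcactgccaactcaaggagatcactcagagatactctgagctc
Ifi209, chr1:173630609-173630858, plus strand: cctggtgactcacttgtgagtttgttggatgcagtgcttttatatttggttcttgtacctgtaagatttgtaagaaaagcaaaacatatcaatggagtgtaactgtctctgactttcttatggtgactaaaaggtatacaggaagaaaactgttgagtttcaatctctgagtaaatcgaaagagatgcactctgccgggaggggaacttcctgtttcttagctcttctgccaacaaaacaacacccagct
Ifi213, chr1:173599273-173599522, minus strand: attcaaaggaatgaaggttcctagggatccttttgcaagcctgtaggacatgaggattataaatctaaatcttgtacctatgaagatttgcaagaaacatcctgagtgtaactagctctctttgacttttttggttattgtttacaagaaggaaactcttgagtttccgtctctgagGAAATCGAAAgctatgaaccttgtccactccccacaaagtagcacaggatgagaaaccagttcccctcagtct
Ifi44l, chr3:151762892-151763141, minus strand: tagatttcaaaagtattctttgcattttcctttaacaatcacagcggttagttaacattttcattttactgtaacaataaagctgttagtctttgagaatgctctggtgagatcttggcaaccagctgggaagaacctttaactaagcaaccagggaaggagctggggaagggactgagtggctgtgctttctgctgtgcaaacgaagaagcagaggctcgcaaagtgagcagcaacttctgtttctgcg
Kcp, chr6:29507953-29508202, minus strand: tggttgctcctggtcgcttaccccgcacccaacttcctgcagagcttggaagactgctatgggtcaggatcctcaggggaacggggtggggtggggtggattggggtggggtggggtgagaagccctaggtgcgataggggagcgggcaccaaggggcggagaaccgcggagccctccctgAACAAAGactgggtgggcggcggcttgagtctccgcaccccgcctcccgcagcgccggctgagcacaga

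In these windows the interferon motif was matched once, in Ifi213, and the TCF/LEF motif once, in Kcp. Of the PYHIN genes, 7 had a window and 4 of them held the interferon motif, namely Ifi203, Ifi207, Ifi213 and Mndal. Over the contrast, windows were found for 344 of the 423 genes. The TCF/LEF motif was in 3 of 127 genes higher in Fz4 KO (2.36%) and in 19 of 217 lower (8.76%), against 7.68% of 14453 measured genes. The interferon motif was in 3.15% of the higher and 3.23% of the lower genes, against 3.13%. A match is a description of letters, not of a bound site.

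Which mutant departed from wild type differed between the genes. The wild-type mean lay between the mutant means for 248 of the 423 genes (58.6%, against 26.2% of all genes). It lay below both for 107 and above both for 68. It was nearer to Fz4 KO than to Norrin KO for 301 (71.2%, against 57.3% of all genes), and the Lrp5 KO mean was nearer to Fz4 KO for 383 (90.5%, against 66.8% of all genes). These positions are descriptions, and the mutants were compared with the same wild-type arrays. The 5 largest differences among genes above both mutants in wild type were those of Trim12a, Alas2, Isl1, Gadd45b and Kcp. Kcp was 9.54 ± 0.39 (SD, n = 6) in wild type, 4.87, 5.76 and 4.98 in Fz4 KO and 7.48, 6.71 and 6.37 in Norrin KO. It was reduced in both mutants and further in Fz4 KO, by -1.65 (adjusted p = 0.0245). Gadd45b, a stress-induced gene, was 12.70, 12.61 and 12.93 in Fz4 KO, near wild type, and 9.50, 11.82 and 11.67 in Norrin KO, where Norrin KO 1 was far lower than its group (difference 1.75, adjusted p = 0.0499, and 0.74 and 0.78 on the dimmer probe sets). That call was lost under 18 of 32 alternatives.

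Besides Fzd4, genes of the pathway itself did not pass the test between the mutants. Of 43 other Wnt ligands, receptors and secreted inhibitors, 0 passed by limma (7 at an unadjusted p under 0.05). Their median difference was -0.06, the same as over all genes, and 30 of the 43 intervals lay within 1 of 0. Fzd6 and Dkk3, the brightest of these, differed by -0.49 (-0.90 to -0.09) and 0.00 (-0.94 to 0.94). Of 21 genes of the signalling machinery 0 passed (3 at an unadjusted p under 0.05). Ctnnb1, which encodes beta-catenin, differed by -0.04 (-0.30 to 0.22), with 1.06 and 0.54 on its dimmer probe sets, and the kinase Gsk3b by 0.22 (-0.08 to 0.52).

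Of 18 beta-catenin target genes 0 passed by limma (3 at an unadjusted p under 0.05), 4 of the 18 differences were above 0 and the median was -0.25. The medians against the same wild-type arrays were -0.98 for Fz4 KO, -0.22 for Norrin KO and -0.85 for Lrp5 KO. The interval of the difference between Fz4 KO and Norrin KO lay within 1 of 0 for 9 of the 18, so for the rest a 2-fold difference is within the error. Several were chosen for naming with their values known. Axin2, a feedback inhibitor, was 8.50, 7.37 and 7.35 in Fz4 KO and 7.68, 8.08 and 8.44 in Norrin KO (difference -0.32, -1.04 to 0.39) against 10.52 in wild type. The groups overlapped and both lay below wild type. Apcdd1, a Wnt inhibitor, differed by -0.06 (-0.56 to 0.44), and the bright Lef1 and Sox17 by 0.37 (-0.02 to 0.76) and -0.23 (-0.55 to 0.10).

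At the ends of that list were Nkd1 and Myc, neither of which passed. Nkd1, an antagonist of Dishevelled, was 6.77, 6.29 and 7.04 in Fz4 KO and 8.43, 7.97 and 7.60 in Norrin KO, where it stood at the wild-type mean of 7.89. The groups did not overlap, and the difference was -1.30 (-2.14 to -0.45, adjusted p = 0.096). Myc was 11.39, 11.42 and 12.09 against 10.32, 10.66 and 10.55 (difference 1.13, 0.41 to 1.85, adjusted p = 0.091), both above the wild-type mean of 9.21.

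Barrier transporters lay far below wild type in both mutants, which were compared with the same wild-type arrays. Their median difference between the mutants was near 0. Of 24 blood-retina barrier transporters, 1 was higher and 1 lower in Fz4 KO (8.33% passed, against 2.32% of all genes). The median was 0.08, whereas the medians against wild type were -1.74 for Fz4 KO and -1.64 for Norrin KO. Slc16a1, which carries lactate and other monocarboxylates, was 11.04, 10.78 and 11.17 in Fz4 KO and 10.04, 10.26 and 9.63 in Norrin KO (difference 1.02 ± 0.19, adjusted p = 0.018), and wild type was at 13.35. It was thus below wild type in both mutants, and lowest in Norrin KO, while its dimmer probe set differed by 0.31. Slc40a1, the iron exporter ferroportin, was 9.02, 9.19 and 9.29 against 10.11, 9.85 and 10.10 (difference -0.85, adjusted p = 0.028), with wild type at 11.14 and so the reverse order of the mutants.

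The other transporters did not pass. The lipid transporter Mfsd2a differed by -0.04 (-0.61 to 0.53), the efflux pump Abcb1a by 0.09 (-0.16 to 0.34), the glucose transporter Slc2a1 by 0.06 (-0.23 to 0.35) and the thyroid hormone carrier Slco1c1 by 0.25 (-0.45 to 0.94). Of 13 barrier endothelial enzymes and related genes, Pglyrp1 alone passed (7.69%, against 2.32% of all genes). It was 7.23, 6.44 and 6.73 against 8.56, 7.95 and 7.69 (difference -1.26, adjusted p = 0.038), with wild type far above both at 12.79. Of 18 junction genes 0 passed by limma (5 at an unadjusted p under 0.05). Cldn5, the main claudin of endothelial tight junctions, came nearest at 11.77, 11.96 and 11.87 against 11.07, 11.28 and 11.56 (difference 0.56, 0.25 to 0.87, adjusted p = 0.059), and Lsr of tricellular junctions differed by -0.02 (-0.35 to 0.32).

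Among genes high in both mutants and low in wild type, Plvap and Gpihbp1 were also close in level. Thy1, described below, was likewise above wild type in both mutants but differed by -1.17 and passed. Plvap, a component of the diaphragms across fenestrae in permeable capillaries, was 12.51, 12.48 and 12.59 in Fz4 KO and 12.65, 12.42 and 12.59 in Norrin KO, against 5.34 in wild type. The groups overlapped, and the difference was -0.03 with an interval of -0.62 to 0.57. Gpihbp1, the capillary anchor of lipoprotein lipase, averaged 11.96 in Fz4 KO and 11.97 in Norrin KO, with overlapping arrays (difference -0.01, -0.56 to 0.54), with wild type at 4.67. Aqp1, a water channel, leaned to Fz4 KO at 12.62, 12.49 and 12.48 against 11.40, 12.01 and 11.96, but did not pass (0.74, 0.02 to 1.46, adjusted p = 0.27).

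Of 13 peripheral capillary genes, 22 tip cell genes, 8 genes of fenestrae and caveolae and 12 of the VEGF and angiopoietin axis, 0 passed by limma (3, 3, 3 and 4 at an unadjusted p under 0.05), with medians of 0.06, 0.05, 0.03 and 0.06. Their intervals lay within 1 of 0 for 7, 15, 8 and 10 members. The peripheral capillary genes ran from -1.37 (Timp4) to 0.74 (Aqp1). The tip cell genes Esm1 and Apln differed by 0.37 (-0.45 to 1.19) and 0.19 (-0.76 to 1.13), and the angiopoietin Angpt2 by -0.14 (-0.52 to 0.24). Arterial (18), venous (12) and cell cycle genes (20) likewise had 0 past limma's test (3, 3 and 2 at an unadjusted p under 0.05), with medians of -0.02, 0.16 and 0.01.

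**Figure D4:**
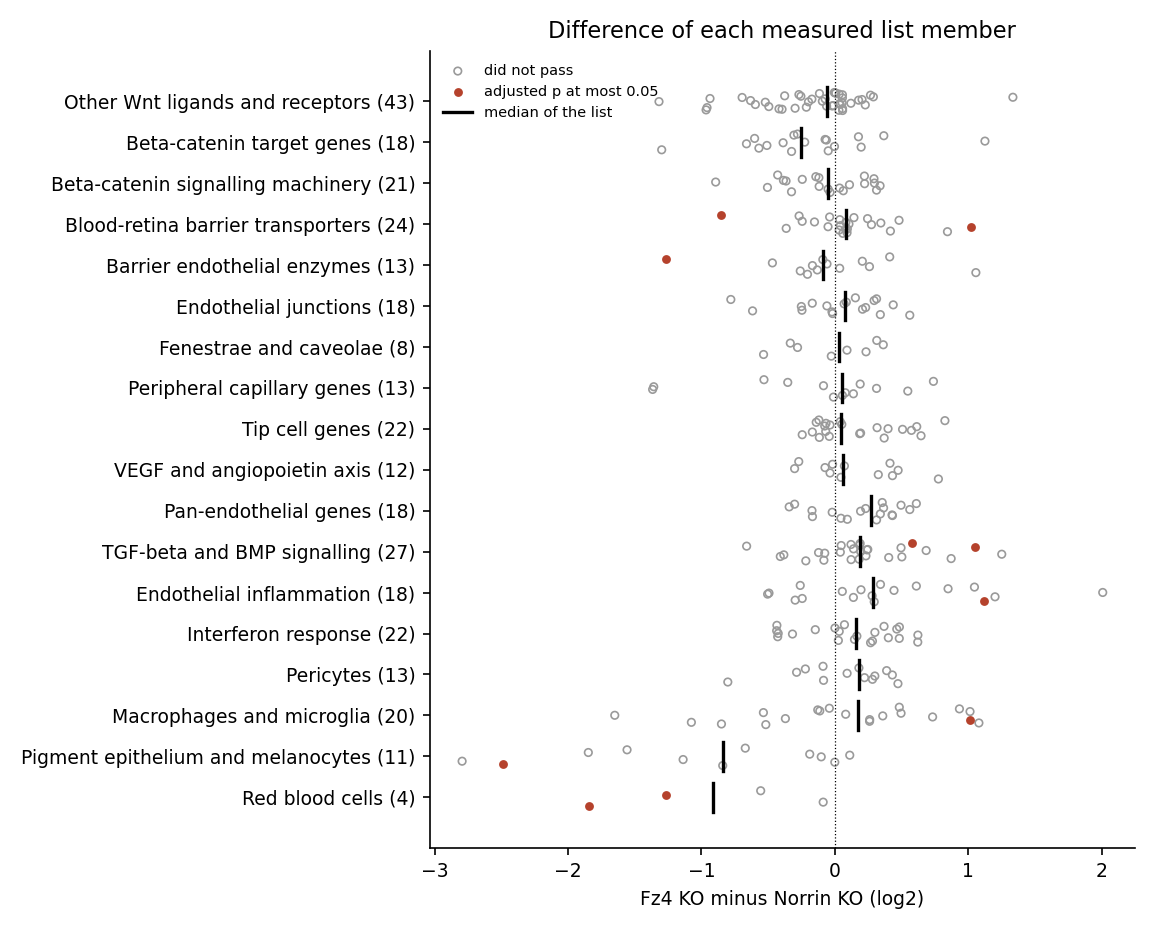
Difference Fz4 KO minus Norrin KO (log2) of every measured member of 18 gene lists, with the number measured in parentheses; filled dots passed at an adjusted p of 0.05 and bars mark list medians. Most medians lie near 0, and those of the pigment epithelium and red blood cell lists lie lowest, at -0.84 and -0.91.

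Across the 25 pathway lists, 15 of 428 genes passed (3.5%, against 2.32% of all genes), 10 higher and 5 lower, where 0.896% of all genes were higher and 1.43% lower. The BMP targets Id1 and Id3, inhibitors of helix-loop-helix factors, were both higher in Fz4 KO. Id1 was 12.72, 12.70 and 12.83 in Fz4 KO, at the wild-type level, and 11.14, 12.43 and 11.53 in Norrin KO (difference 1.05, adjusted p = 0.042). Id3 was 12.78, 12.72 and 12.68 against 11.90, 12.28 and 12.26 (difference 0.58, adjusted p = 0.043). Norrin KO was the lower group in both genes and Norrin KO 1 its lowest array, and the calls were lost under 17 and 18 of 32 alternatives. In the same list Id2 (1.25) and Smad7 (0.87) did not pass, and 20 of 27 members were above 0.

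Of 18 endothelial inflammation genes, Tnfaip3, an inhibitor of NF-kappaB signalling, passed at 11.30, 11.32 and 11.80 in Fz4 KO against 10.32, 10.32 and 10.41 in Norrin KO (difference 1.12, adjusted p = 0.034). The Norrin KO arrays were at the wild-type level, and the second probe set of Tnfaip3 gave 2.09. Csf3, the granulocyte growth factor, had the largest difference of that list without passing (2.01, adjusted p = 0.065), while the adhesion molecules Icam1 (0.14) and Sele (0.44) did not pass. Of 22 interferon response genes 0 passed by limma (4 at an unadjusted p under 0.05, median 0.16), among them the bright Ifitm3 at 0.07 (-0.15 to 0.30) and Rsad2 at 0.00 (-0.41 to 0.41).

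But for the respiratory chain, the remaining passing members were the only ones of their lists to pass. H2-K1, a class I histocompatibility gene, was higher by 0.63, with 0.69, 0.12 and 0.15 on its other probe sets. In its list of 14 histocompatibility and antigen presentation genes, 13 were above 0, with a median of 0.37. The list mean was 10.16 to 10.58 in Fz4 KO and 9.78 to 10.04 in Norrin KO, with no overlap, against 8.92 to 9.87 in wild type. Lamb2, a laminin of the basement membrane, was higher by 0.72, the chaperone Hsp90aa1 by 0.91, the hypoxia gene Ankrd37 by 0.82 and the ribosomal Rpl19 by 0.57. Of 13 ribosomal protein genes 11 were above 0, with a median of 0.17. Their list mean was 12.91 to 12.98 in Fz4 KO and 12.59 to 12.85 in Norrin KO, against 12.72 to 12.92 in wild type. The groups did not overlap for 7 of the 14 and 8 of the 13 genes, against 24.6% of all genes. The Notch modifier Mfng was lower, by -0.66. Of 32 alternatives, Mfng was lost under 21, Lamb2 and Ankrd37 under 19 each, Hsp90aa1 under 18 and Rpl19 under 16, and H2-K1 under 11 of 31. Of the respiratory chain, Uqcrc1 was higher by 1.00 and Uqcrc2 lower by -0.85, with -0.13 on its dimmer probe set; both encode core proteins of the same complex.

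Of 16 lists of cell type markers, 6 held a passing gene. Of 178 cell type genes 8 passed (4.49%, against 2.32% of all genes), 2 higher and 6 lower in Fz4 KO, where 0.896% of all genes were higher and 1.43% lower, and in bulk RNA fewer cells of a type and less RNA per cell cannot be told apart. Of 4 measured red blood cell genes, 2 were lower in Fz4 KO: Alas2, the heme synthesis enzyme of red cells, at 4.31, 3.63 and 3.24 against 5.69, 5.67 and 5.34 (difference -1.84, adjusted p = 0.016), and the hemoglobin gene Hbb-b2 at 9.26, 8.58 and 8.37 against 9.81, 10.39 and 9.80 (difference -1.26, adjusted p = 0.015). Both were lower in Fz4 KO on every array. The list mean was 4.66 to 5.09 in Fz4 KO, 5.56 to 5.97 in Norrin KO and 5.98 to 6.66 in wild type.

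Pigment cell genes leaned to Norrin KO. Of 11 measured genes of pigment epithelium and melanocytes, Tyrp1, a melanin synthesis enzyme, passed at 3.89, 4.71 and 4.55 in Fz4 KO against 7.81, 6.01 and 6.79 in Norrin KO (difference -2.49 ± 0.36, adjusted p = 0.0074). Its other probe sets gave -2.58 and -0.79. Dct (-1.85), Mlana (-1.14) and Ttr (-2.79) did not pass, and the list mean was 4.69 to 5.11 in Fz4 KO, 5.45 to 6.30 in Norrin KO and 5.01 to 5.86 in wild type. Tyr, also a melanin synthesis enzyme, differed by only -0.10, with means of 3.97 in Fz4 KO and 4.07 in Norrin KO, both below wild type at 5.63. Of the 11 listed genes 1 was above 0, and the median was -0.84. Trpm1, a channel of melanocytes and of bipolar cells, was also lower in Fz4 KO, at 4.45, 4.86 and 5.05 against 6.96, 6.38 and 7.21 (difference -2.06, adjusted p = 0.0054), as was the glial S100b (-1.41, with -0.31 on its dimmer probe set, and lost under 17 of 32 alternatives). The dimmer probe sets of Trpm1 gave -1.17, -0.77 and 0.35 and did not pass. The retinoid isomerase Rpe65, which defines pigment epithelium, was dim in both mutants, at 3.91 to 4.14 and 4.31 to 5.44, and the part of pigment cells in the other differences was not tested.

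Neuronal and immune markers gave single genes. Isl1, a transcription factor of bipolar and ganglion cells, was higher in Fz4 KO at 6.25, 6.04 and 5.28 against 4.67, 3.35 and 4.03 (difference 1.84, adjusted p = 0.041, with 0.14 on its dimmer probe set, and lost under 17 of 31 alternatives). Thy1, a surface protein of ganglion cells and of some vessels, was lower at 9.49, 9.30 and 9.35 against 10.84, 10.33 and 10.48 (difference -1.17, adjusted p = 0.017), and both mutants were above wild type at 5.22. Rods, cones, pericytes and smooth muscle had 0 genes past limma's test (1, 2, 3 and 2 at an unadjusted p under 0.05). Of 10 fibroblast genes 0 passed by limma (3 at an unadjusted p under 0.05) and 3 were above 0, while the list mean was 7.04 to 7.30 in Fz4 KO and 7.47 to 7.71 in Norrin KO, with no overlap, against 7.58 to 7.83 in wild type. The part of fibroblasts in the other differences was not tested. Of 20 macrophage and microglia genes the dim integrin Itgam passed (1.02, adjusted p = 0.031), the list means overlapped (9.63 to 10.16 and 9.61 to 10.22), and the microglial P2ry12 (1.08) and the perivascular macrophage receptor Cd163 (-1.65) differed in sign without passing.

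Genes close to the deleted locus were examined because the background is mixed. Of the 20 measured genes on each side of Fzd4 on chromosome 7, 3 of 40 passed (7.5%, against 2.32% of all genes). Prss23, a secreted serine protease and the next gene, was 11.62, 11.89 and 11.87 in Fz4 KO against 10.86, 10.94 and 11.04 in Norrin KO (difference 0.85 ± 0.13, adjusted p = 0.0074). It was raised on all Fz4 KO arrays, but the Lrp5 KO arrays were at 11.63, 11.66 and 11.72 as well, above wild type at 10.82. The other probe sets of Prss23 differed by 0.43 and 0.33 and did not pass. On both, the Norrin KO mean also lay above wild type, at 10.3 against 9.6 and 9.4 against 7.7. Me3, a mitochondrial malic enzyme and the gene after it, was 5.27, 4.77 and 5.07 against 6.89, 6.53 and 6.65 (difference -1.66, adjusted p = 0.026), and there the Norrin KO arrays stood out. Arnt2, 13 genes away, was lower by -1.19, with its other probe sets at 0.10 and -0.24. In the 6 arrays alone 1 of the 40 passed, without Fz4 KO 1, Fz4 KO 2 or Norrin KO 1 it was also 1, and with the sex-linked or the actin covariates 0.

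Around Ndp on the X chromosome 0 of 40 genes passed by limma (3 at an unadjusted p under 0.05), and 1 passed without Lrp5 KO 1 or without wild type 4. Maob, the gene next to Ndp and an amine oxidase, had the largest difference at -1.58 (-2.48 to -0.68, adjusted p = 0.064), with means of 4.62 in Fz4 KO and 6.21 in Norrin KO, both below wild type.

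**Figure D5:**
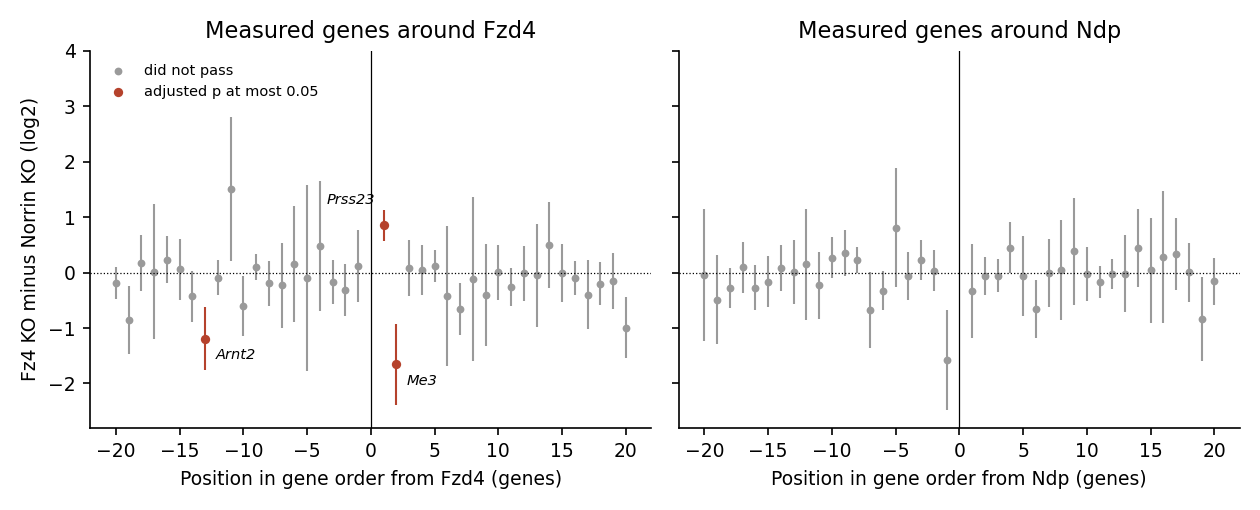
Difference Fz4 KO minus Norrin KO (log2) with 95% intervals for the 20 measured genes on each side of Fzd4 (left) and Ndp (right), placed by their order along the chromosome. Of the 40 genes around Fzd4, Arnt2, Prss23 and Me3 passed, and of the 40 around Ndp 0 passed.

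The largest differences besides that of Fzd4 included a few neighbouring pairs. The 20 measured genes on each side of these 30 were 1052 distinct genes beyond the 30 themselves, of which 19 passed (1.81%, against 2.32% of all genes). Of the 30, 12 had no passing neighbour, the others of the 30 included. Dyrk3 and Ctse lay 7 genes apart on chromosome 1 with Mapkapk2 (1.22) beside Dyrk3, all higher in Fz4 KO, while Fcmr (-1.10) in the same stretch was lower. Gp1bb and the transcription factor Tbx1 (-1.57) were adjacent on chromosome 16 and both lower. Gdpd3 and Rabep2 lay 14 genes apart on chromosome 7, also both lower. These pairs were picked out after their values were seen.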

How the data were processed

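Gene expression was measured on Affymetrix mouse arrays, 1 pool of 5 to 10 mice each. The deposited values are log2 signals made by the authors with RMA, per the submitters' processing notes; whether all 15 arrays were normalized together is not given in the sources used here. RMA makes arrays alike in distribution, so a shift shared by most genes would not show. Of 45101 probe sets, 34958 had 1 gene symbol, and the brightest stood for each of 18194 genes. Fz4 KO minus Norrin KO was tested with limma 3.58.1 (R 4.3.3), from 4 group means over 15 arrays, with Benjamini-Hochberg adjustment over all genes. No filter on dim genes was applied.

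The text names the targeted genes, the 15 largest differences past the test each way, the 5 largest for each position of wild type, and for each list its passing or 2 brightest members; genes beyond these were chosen after their values were seen. The members and the 44 gene lists were chosen with earlier results of these data known. On simulated data the fit recovered 47 of 100 genes changed by 1 and 88 of 100 changed by 2 (log2), with 12 false calls (8.16%). The comparison was repeated under 15 other settings, without each array in turn, and under 2 settings chosen after seeing the data. Equal replicate numbers did not pair Fz4 KO with Norrin KO: correlations of same-numbered deviations were -0.02, 0.01 and -0.13. Deviations of Fz4 KO did run with those of wild type 1 to 3 (0.27, 0.29 and 0.32, genes on X and Y left out), and those of Lrp5 KO with wild type 4 to 6 (0.65, 0.50 and 0.25), with no such set for Norrin KO (-0.15 to 0.03). The test ignores these sets, and a random block for them was 1 of the 2 added settings.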

Additional observations from a re-analysis of the deposited data

Results flagged for a closer look

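Among 33 genes and 3 control signals tested in wild type, the only group large enough, 5 genes had an array far from the others, and chance gives about 1 in 20. Ndp was 4.81 on wild type 4 against 4.28 to 4.47 on the others, and Hddc3 was 6.46 on the same array against 7.30 to 7.54. Dusp14 was 6.78 on wild type 3 against 4.74 to 5.48. Wild type 2 held the highest Ifi44l, 3.48 against 2.34 to 2.60, and the highest Gdpd3, 9.72 against 7.07 to 7.88, which for both genes lay below every Norrin KO array.

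Probe sets with several gene symbols or none were outside the gene comparison. Of 10092 such probe sets, 100 passed the same test over all probe sets, 55 higher and 45 lower in Fz4 KO.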

How the results depend on the processing

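Numbers of genes higher and lower in Fz4 KO were 163 and 260 as reported. They were 235 and 423 after a further quantile normalization, 276 and 424 among genes above the median gene, 122 and 153 with probe sets averaged, 285 and 357 with a trended and robust variance, and 377 and 678 with array weights. They fell to 63 and 136 with a minimum difference of 1, 4 and 15 with 6 arrays, 4 and 3 with Xist and Eif2s3y, and 7 and 5 with the actin gap. With the replicate number as a block they were 1 and 1. Equal numbers did not pair Fz4 KO with Norrin KO, although deviations of Fz4 KO ran with those of wild type 1 to 3. For this contrast the drop is therefore not read as a weaker effect. Not every array correlated best with its own number. Leaving out 1 array gave 23 to 275 higher and 38 to 489 lower. Without Norrin KO 1, Lrp5 KO 1 and wild type 4, left out together after seeing the data, they were 148 and 255, and with the matched Fz4 KO, Lrp5 KO and wild-type arrays as a random block, also added after seeing the data, 183 and 361 (154 and 246 shared with those reported). The cause of these changes was not tested. Under all settings but these 2, those of the 423 genes that were tested kept their direction, with few exceptions. These were 2 with probe sets averaged and 6 of 409 without cross-binding probe sets. Where 1 array was left out or only 6 were used, the direction was largely fixed in advance. Fzd4 ranged from -7.60 to -4.86. Of the 30 largest differences besides Fzd4, 6 still passed with 6 arrays, 4 with the sex-linked and 3 with the actin covariates.

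Around Fzd4 the 3 passing neighbours became 1 among genes above the median gene, with 6 arrays and without the 3 arrays together, and 0 with the block, the sex-linked or the actin covariates; leaving out 1 array gave 1 to 4. Around Ndp 0 became 1 with the trended variance, array weights, 6 arrays, the macrophage covariate, the random block or without the 3 arrays together, and 0 to 1 on leaving out 1 array. Precision is limited by 3 arrays a group, and 75 of the 423 genes were below the median gene level in both groups.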
